A study of Mus musculus with 5 samples.

Results

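Neurog2, Neurod1, Neurod2, Neurod6, Tbr1, Eomes, Fezf2 and Bcl11b are 8 transcription factor genes of the pathway from cortical progenitor to glutamatergic projection neuron. They were taken as a named set from 21149 genes with a named probe, through the RefSeq accession of each probe. Their values in these samples were not a criterion of the rule. Earlier results of these data were known when the set was chosen, so its counts and p-values are descriptive. All 8 had a probe on the array, 12 probes in total, and 4 of the genes had 2 probes. The samples were total RNA from 3 mouse gliomas and from 2 normal mouse brains, all taken at postnatal day 150, each hybridised to 1 single-colour Agilent whole-genome array. The gliomas came from a model based on mosaic analysis with double markers (MADM), in which recombination between chromosomes during division labels sparse sister cells. The labels name no mutated allele, Cre driver, strain or brain region for either group. They also do not say whether replicates came from separate animals. The p-values therefore set group differences against the spread between these samples only, and cannot be extended to other animals.

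In the developing cortex, Neurog2 encodes a basic helix-loop-helix (bHLH) proneural factor of dividing progenitors, which starts neuronal differentiation. Eomes (Tbr2) marks the intermediate progenitors that follow, Neurod1, Neurod2 and Neurod6 are bHLH factors of newborn and maturing glutamatergic neurons, and Tbr1, Fezf2 and Bcl11b (Ctip2) set the identity of deep-layer projection neurons. In the adult forebrain several of them stay on in neurons, Bcl11b also in striatal projection neurons, while Neurod1 is a factor of granule neurons and both Eomes and Bcl11b also act in lymphocytes.

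bHLH factors bind the E-box, written CANNTG. Its occurrence in the 250 bases upstream of the annotated start was looked up in RefSeq promoter sequences of build GRCm38.p6, in which all 8 genes had an entry. The windows of Neurod1, Neurod2, Neurod6 and Tbr1 held an E-box, 4 of 8, against 66.2% of the 32851 promoter windows of the genome, so the set does not stand above that share. The windows of Neurod2, Neurod6 and Tbr1, whose fall is described below, are shown because their E-boxes lie nearer the start than that of Neurod1. The E-boxes begin 118, 51 and 17 bases upstream of the start in Neurod2 and 162 and 132 in Neurod6. Those of Tbr1 and Neurod1 begin 46 and 242 bases upstream. E-boxes are in capitals, read 5′ to 3′ on the strand of the gene.
Neurod2, chr11:98329646-98329895, minus strand: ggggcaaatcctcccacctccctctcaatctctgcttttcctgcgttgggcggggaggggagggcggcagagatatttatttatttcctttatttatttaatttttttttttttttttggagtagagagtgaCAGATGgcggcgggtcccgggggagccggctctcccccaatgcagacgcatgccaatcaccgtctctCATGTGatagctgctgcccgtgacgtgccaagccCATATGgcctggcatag
Neurod6, chr6:55681264-55681513, minus strand: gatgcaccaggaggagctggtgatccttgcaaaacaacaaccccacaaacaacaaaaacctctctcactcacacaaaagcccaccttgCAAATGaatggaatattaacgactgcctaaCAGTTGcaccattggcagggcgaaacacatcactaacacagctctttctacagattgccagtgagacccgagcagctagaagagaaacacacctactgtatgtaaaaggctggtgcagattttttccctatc
Tbr1, chr2:61804203-61804452, plus strand: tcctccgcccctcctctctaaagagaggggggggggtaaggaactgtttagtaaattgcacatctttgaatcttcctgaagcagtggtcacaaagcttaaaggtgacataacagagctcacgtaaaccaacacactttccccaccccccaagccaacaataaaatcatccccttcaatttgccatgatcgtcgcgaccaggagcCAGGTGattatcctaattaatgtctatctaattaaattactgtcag
The Neurod2 window holds 3 E-boxes, 1 of them CAGATG, and the Neurod6 window 2. The Tbr1 window holds 1 E-box and 2 copies of the homeodomain core TAATTA, which 4.84% of all windows hold at least once. The T-box motif AGGTGT was found in the Neurod6 window alone, against 11.8% of all windows. All motifs were searched on both strands, and no match of one motif overlapped a match of another in these 8 windows. These are letter matches, not measured sites.

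Levels below are log2 processed signals relative to the 75th percentile of the array, so that 0 is the level of that percentile. Well above background, by the scanner software's own flag, were 61.5% to 70.3% of the spots other than controls on an array. Precision is limited by having 5 arrays. Across 16891 genes tested with limma, 51.4% were called at a Benjamini-Hochberg adjusted p under 0.05, 23.6% as higher and 27.8% as lower in glioma. Of these calls 45.98% were higher, against a share of 63.74% in the unscaled values of the authors. Over all genes the median log2 change was -0.05 in the scaled values and 0.31 in the unscaled ones. The levels of marker genes differed between the labelled groups. All 12 pan-neuronal genes were called lower and all 6 oligodendrocyte progenitor genes higher in glioma, though both sets were detected on every array of both groups.

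Of the 8 factors, 6 were called lower in glioma, as were 27.8% of all genes tested, Eomes did not pass the test and Neurog2 was not tested because no array detected it well above background. In the 6 genes that fell, Neurod1, Neurod2, Neurod6, Tbr1, Fezf2 and Bcl11b, no glioma value overlapped a normal brain value, a pattern in that direction shown by 38.8% of all genes tested. None of the 7 tested was called higher by limma, and none reached an unadjusted p under 0.05 in that direction, while 23.6% of all genes were called higher and 35.2% lay higher without overlap. Neurod1 entered the test only through the normal brain arrays, where it was detected, which favours finding a difference. In bulk RNA, fewer cells of a type and less RNA per cell cannot be told apart.

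**Figure D1:**
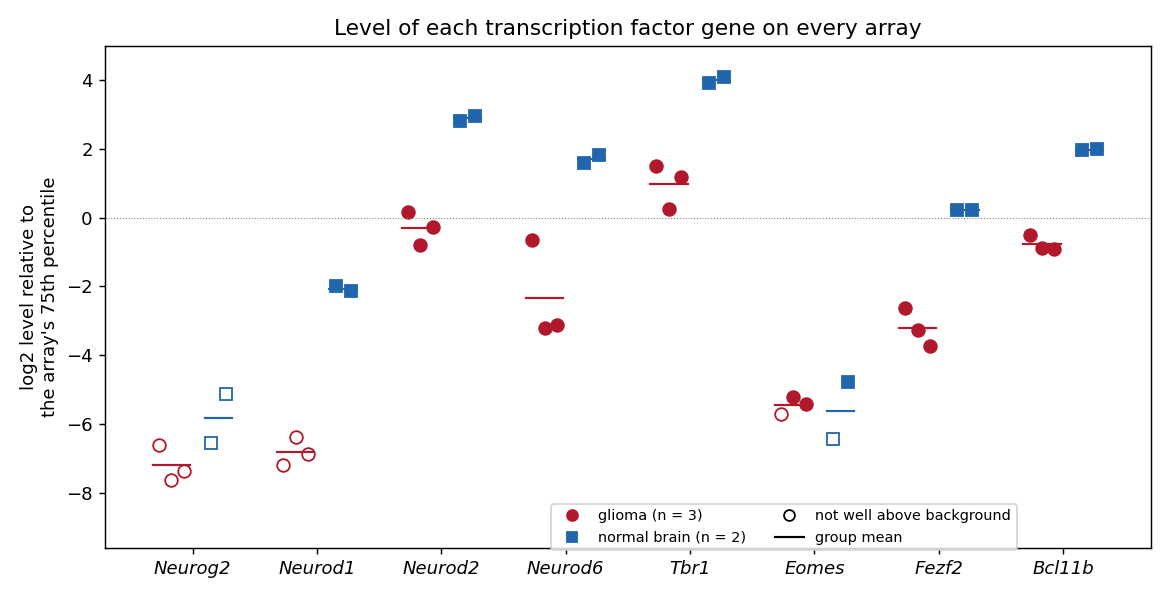
Log2 level of each of the 8 genes on every array, relative to the array's 75th percentile, with gliomas as circles to the left of normal brains as squares, group means as lines, and open symbols where the probe was not well above background. Gliomas lie below both normal brains in Neurod1, Neurod2, Neurod6, Tbr1, Fezf2 and Bcl11b, while Eomes overlaps and Neurog2 is open throughout.

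The proneural gene Neurog2 lay at log2 levels of -6.60, -7.62 and -7.36 on glioma arrays 1 to 3, against -6.54 and -5.14 on normal brain arrays 1 and 2, none of them well above background. No change can be read from these values. Eomes, the T-box gene of intermediate progenitors, was barely detectable, at -5.72, -5.23 and -5.41 on the glioma arrays, against -6.44 and -4.79 on the normal brain arrays. It was well above background on gliomas 2 and 3 and on normal brain 2 only, and its other probe was above background on no array. The groups overlapped (log2 change 0.16 ± 0.51 SE, adjusted p = 0.813, limma), and the sign turned to -0.67 without normal brain replicate 1 and to -0.26 with normexp background correction.

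Neurod1, a bHLH factor of newborn and granule neurons, was measured in normal brain only. Its levels were -7.20, -6.38 and -6.87 on the glioma arrays, against -2 and -2.12 on the normal brain arrays. It was well above background on both normal brain arrays and on no glioma array, so only an approximate bound can be given, at least 16-fold lower in glioma. The bound was taken against the lowest detected signal of each glioma array, or against Neurod1 itself where that was brighter. Some brighter probes were not well above background either, such as Nhlh2 at -5.8 in glioma 3. This bound and those given below for other genes are therefore not strict. The adjusted p of 0.000439 (limma) belongs to the fitted change, in a test that the gene entered through normal brain alone. With normexp, whose offset shrinks the changes of dim probes, the fitted log2 change was -1.98 in place of -4.76. Its dimmer probe was likewise detected on both normal brain arrays at -3.76 and -3.48 and on no glioma array.

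Neurod2, a factor of maturing glutamatergic neurons and their synapses, stood at 0.17, -0.78 and -0.26 in the gliomas, against 2.83 and 2.95 in the normal brains. All 5 arrays detected it and the groups were well separated. It was 9.06-fold lower in glioma (log2 change -3.18 ± 0.30, adjusted p = 0.00112). Neurod6, which marks pyramidal neurons of neocortex and hippocampus, was the most variable of the set between gliomas. Its level was -0.66 in glioma 1 but -3.21 and -3.13 in gliomas 2 and 3, against 1.6 and 1.83 in the normal brains. Glioma 1 thus lay well above the other gliomas and still below both normal brains. The glioma SD of 1.45 (n = 3) was larger than that of 98.5% of genes tested, whose median SD was 0.26. Neurod6 was 16.5-fold lower in glioma (-4.05 ± 0.84, adjusted p = 0.0129), but the call was lost without normal brain replicate 1 (adjusted p = 0.0587) or replicate 2 (0.0669). Without glioma replicate 1 the log2 change was -4.88, with an adjusted p of 0.0014.

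Tbr1, a T-box factor of early-born deep-layer neurons that project to the thalamus, had levels of 1.52, 0.26 and 1.2 in the gliomas, against 3.91 and 4.11 in the normal brains. It stayed above the 75th percentile of signal in every glioma, yet 8.08-fold below normal brain (-3.01 ± 0.40, adjusted p = 0.003). Its dimmer probe, well above background on all arrays, gave nearly the same log2 change of -3.06 ± 0.19. Fezf2, a zinc finger factor that specifies subcerebral projection neurons, was at -2.63, -3.26 and -3.72 in the gliomas, against 0.22 and 0.23 in the normal brains. The normal brain values were nearly equal and the gliomas lay far below them, a 10.7-fold fall (-3.43 ± 0.34, adjusted p = 0.00124). Bcl11b, a zinc finger factor acting downstream of Fezf2 in corticospinal neurons, was at -0.51, -0.89 and -0.91 in the gliomas, against 1.97 and 2 in the normal brains. It showed the smallest fall of those called and the smallest SD between gliomas, 0.22, below the 0.26 of the median gene. It was 6.73-fold lower (-2.75 ± 0.18, adjusted p = 0.000522), and its other probe changed by -2.77 ± 0.16.

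The spread between gliomas differed from factor to factor. Glioma 1 had the highest level among the gliomas in 5 of the 5 factors detected on all arrays, Neurod2, Neurod6, Tbr1, Fezf2 and Bcl11b. The share of all genes that were highest in glioma 1 was not counted, so this order is not shown to be particular to the factors. The differences between gliomas cannot be tested with 1 array each. The median pan-neuronal level was also highest in glioma 1, at 3.07, against 2.71 and 2.97 in gliomas 2 and 3. Between gliomas the level ranged over 0.4 for Bcl11b, 0.95 for Neurod2, 1.1 for Fezf2, 1.26 for Tbr1 and 2.54 for Neurod6. The median range of all genes tested was 0.5. The pan-neuronal median is taken over several genes on each array and tends to range less than a single gene. Its range therefore cannot be set against those of the factors. The part of neuronal content in the differences between gliomas was not tested.

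Neuronal transcripts as a whole were lower in glioma, and their values stand beside those of the factors. Each of the 12 pan-neuronal genes fell (median log2 change -3.23), led by the neurofilament genes Nefm (-4.73 ± 0.31) and Nefl (-4.67 ± 0.33) and by Stmn2, a tubulin-binding protein of growing axons (-3.57 ± 0.29). Their summed log2 level was 6.27 to 6.81 in the gliomas, against 9.46 in both normal brains. The 6 oligodendrocyte progenitor genes moved the other way, with a median of 3.93 and summed levels of 8.19 to 8.45 in the gliomas, against 5.11 and 5.14 in the normal brains. Among them were the proteoglycan gene Cspg4 (4.74 ± 0.17), the growth factor receptor gene Pdgfra (4.56 ± 0.40) and Olig2 (4.49 ± 0.17). Of 6 stem and progenitor genes, 4 rose, including Fabp7 (5.09 ± 0.14), Nes (3.70 ± 0.24) and Vim (3.50 ± 0.33), and Hopx fell (-2.69 ± 0.50), a call lost without normal brain replicate 1 (adjusted p = 0.0501) or 2 (0.0544).

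To set the factors against the neuronal transcripts of the same array, the median level of the 12 pan-neuronal genes was subtracted from every gene of that array and the fit repeated over all genes. This median was lower in gliomas 1 to 3 by log2 changes of -2.41, -2.77 and -2.51. On this scale 87.8% of all genes tested were higher and 2.77% lower in glioma. The 12 genes themselves did not share 1 change: on this scale 7 of them were called lower and 3 higher. A median of their levels and a median of their changes therefore differ, and the fit was repeated with the median change of the 12 genes from their normal brain means, an alternative chosen after seeing the data. That median was -2.88, -3.59 and -3.23 in gliomas 1 to 3, and 92.2% of all genes tested were then higher and 0.811% lower.

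Neurod2, Tbr1, Fezf2 and Bcl11b had no difference from the neuronal genes that held on both scales. Against the median level, Neurod2 differed by -0.62 ± 0.23 (adjusted p = 0.0444) and Fezf2 by -0.86 ± 0.33 (adjusted p = 0.0443), while Tbr1 (-0.45 ± 0.31, adjusted p = 0.206) and Bcl11b (-0.19 ± 0.19, adjusted p = 0.379) did not pass. Against the median change, the differences were 0.05 ± 0.32 for Neurod2 (adjusted p = 0.875), -0.19 ± 0.37 for Fezf2 (0.621), 0.22 ± 0.35 for Tbr1 (0.551) and 0.48 ± 0.33 for Bcl11b (0.179). None of these passed, which does not show that the factors moved like the neuronal genes. With 1 array left out, the adjusted p against the median level ranged from 0.014 to 0.216 for Neurod2 and from 0.0259 to 0.14 for Fezf2.

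For Neurod6 the changes relative to the median level were 0.04, -2.15 and -2.33 in gliomas 1 to 3, so that gliomas 2 and 3 lay well below glioma 1. The difference did not pass against the median level (-1.49 ± 0.73, adjusted p = 0.0995) or the median change (-0.81 ± 0.56, adjusted p = 0.184), and against the median level it passed without glioma replicate 1 (-2.24, adjusted p = 0.000555). Neurod1 differed by -2.20 ± 0.37 from the median level (adjusted p = 0.00164) and by -1.53 ± 0.44 from the median change (adjusted p = 0.00661), though in gliomas it was not well above background and with normexp the difference from the median level was 0.68 with an adjusted p of 0.00446. Eomes was higher relative to the median level (2.72 ± 0.53, adjusted p = 0.00323) and the median change (3.39 ± 0.51, adjusted p = 7.01e-05), as most genes were, from a probe near background.

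**Figure D2:**
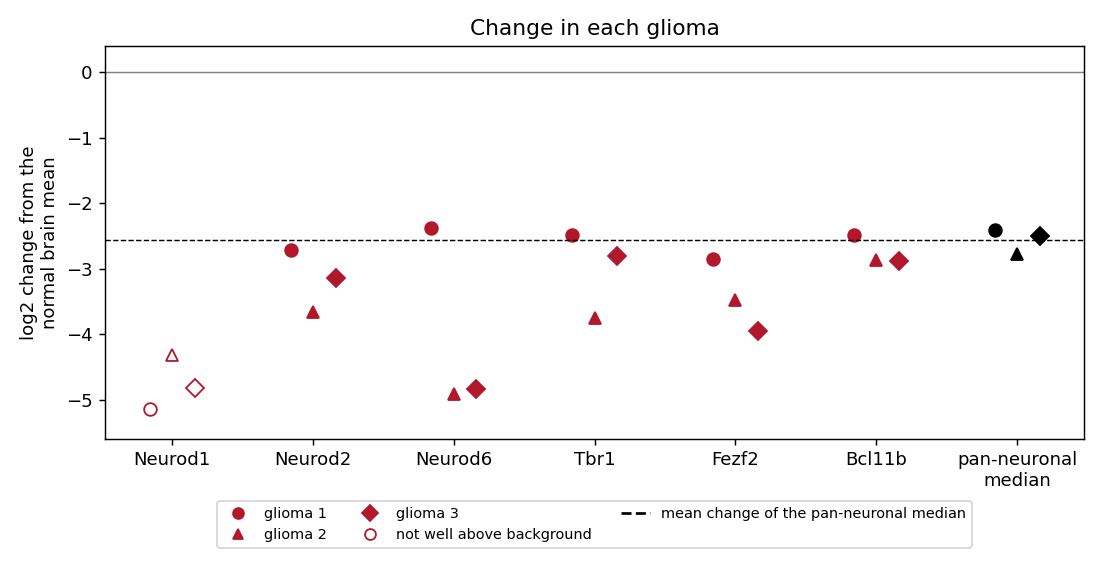
Log2 change from the normal brain mean of the 6 genes called lower, in gliomas 1 to 3. Black symbols are the change of the median level of 12 pan-neuronal genes, whose mean is the dashed line at -2.56. Neurog2 and Eomes are not drawn. Bcl11b lies near the line in all gliomas, Neurod6 lies near it in glioma 1 and more than 2 log2 units below it in gliomas 2 and 3, and Neurod1 is drawn open because no glioma array detected it.

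Genes closely related to the factors were followed as well. Bcl11a, the paralog of Bcl11b, was at 1.38, 0.51 and 0.71 in the gliomas, against 3.66 and 3.90 in the normal brains, and fell by 2.92 on the log2 scale (SE 0.30, adjusted p = 0.00135), close to the -2.75 of Bcl11b. Fezf1, the paralog of Fezf2, entered the test only through normal brain, which favours finding a difference. It was detected on both normal brain arrays at -2.50 and -2.79 and on no glioma array. By the approximate bound it was at least 10.7-fold lower in glioma, and its fitted log2 change was -5.13 (adjusted p = 0.000328, limma). The T-box gene Tbx21, related to Eomes and Tbr1, was detected on all glioma arrays, at -4.74, -4.54 and -4.62, and on no normal brain array, at -5.30 and -5.43. By the approximate bound it was at least 1.59-fold higher in glioma, and its fitted log2 change was 0.73 (adjusted p = 0.0105, limma). With normexp its change was -0.05. The call was lost with a variance trend (adjusted p = 0.0726), and also when normal brain replicate 1 or 2 was left out. Tbx21 entered the test only through glioma, which favours a difference without fixing it. Neurog1, related to Neurog2, was dim and did not pass (0.08 ± 0.19, adjusted p = 0.754), and Neurod4 was detected on no array.

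Other neurogenic bHLH genes split between the groups, with a median of 0.08 against -0.05 over all genes. Of 13 listed genes, 4 were not detected, and of the 9 tested, 3 rose, 3 fell and 3 did not pass. Over all genes tested, 23.6% were called higher and 27.8% lower. The E-protein genes Tcf3 and Tcf12, whose products pair with tissue-specific bHLH factors, rose by 1.87 ± 0.13 and 1.59 ± 0.27, the call of Tcf12 being lost without normal brain replicate 1 (adjusted p = 0.0555). The neuronal genes Nhlh2 and Bhlhe22 fell by 3.35 (SE 0.17) and 3.14 (SE 0.41) on the log2 scale, and Atoh7 by 0.71, a call lost without normal brain replicate 1 (adjusted p = 0.142) or 2 (0.0897), in the unscaled values (-0.35, adjusted p = 0.217), with a variance trend (0.054) and with the replicate block (0.0564). Nhlh2 was detected on 1 of the 3 glioma arrays.

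The Hes, Hey and Id genes were listed by family, as repressor and Id genes. Of these 10 genes, 4 rose, 1 fell and 5 did not pass, with a median of 0.60, beside 23.6% higher and 27.8% lower over all genes. Hes6 was among those that rose (0.90 ± 0.14). The Notch effector genes Hes1 and Hes5 rose by 2.68 ± 0.46 and 1.87 ± 0.41, with Hes1 detected on 1 of the 2 normal brain arrays. Id3, whose product sequesters E-proteins, rose by 1.31 ± 0.22, and Id4 fell by 1.07 (SE 0.29). Without normal brain replicate 1 or 2, 1 gene of the list was called higher. The calls of Hes5, Hes6 and Id3 were then lost. The fall of Id4 was lost without glioma replicate 2 (adjusted p = 0.0586), without normal brain replicate 1 or 2 (0.145 and 0.126) and in the unscaled values.

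Factors of cortical projection neurons outside the set fell more often than they rose. Of 25 tested, 11 fell, 4 rose and 10 did not pass, with a median of -0.78. More genes fell than rose over all genes tested too, 27.8% against 23.6%. Without glioma replicate 3 the number that fell was 17. Besides Fezf1, the largest falls were in Emx1, a homeobox gene of the dorsal telencephalon (-3.47 ± 0.18), and Nr4a2, a nuclear receptor of subplate and claustral neurons (-3.30 ± 0.38). The genes that rose were POU factors and an ETS factor: Pou3f1 (2.96 ± 0.39), Pou3f3 (1.31 ± 0.18), Pou3f2 (1.01 ± 0.19) and Etv1 (0.98 ± 0.30). Without normal brain replicate 1 or 2 only 2 genes of the list were called higher, Pou3f2 (adjusted p = 0.0763 and 0.0632) and Etv1 (0.168 and 0.158) being lost. Etv1 was also lost without glioma replicate 1 (0.0561) or 2 (0.0516). POU factors of this class are also known in the oligodendrocyte lineage and in progenitors. Lhx2 (-0.51 ± 0.20, adjusted p = 0.0839) and Emx2 (-0.26 ± 0.14, adjusted p = 0.179), named after their values were seen, were among those that did not pass.

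**Figure D3:**
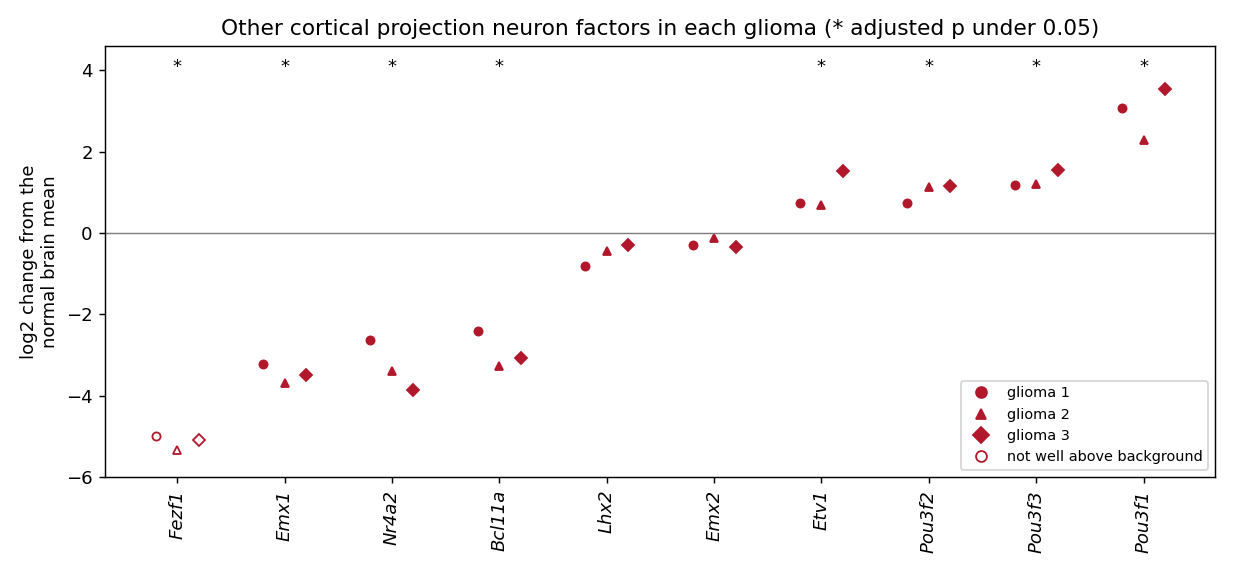
Log2 change from the normal brain mean of the other cortical projection neuron factors named in the text, in gliomas 1 to 3, ordered by mean change, with a star over genes at an adjusted p under 0.05. Fezf1, Emx1 and Nr4a2 lie lowest, the POU genes and Etv1 highest, and Fezf1 is open because no glioma array detected it.

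Genes described in the literature as targets of the factors also split. Of 15 listed, Auts2 was not matched, and of 14 tested, 7 fell, 2 rose and 5 did not pass, with a median of -1.33. The shares over all genes tested were 27.8% lower and 23.6% higher. Pcp4, a calmodulin regulator of deep-layer neurons, fell by 3.53 (SE 0.20), and Grin2b, an NMDA receptor subunit gene regulated by Tbr1, fell by 3.48 (SE 0.16). Slc17a7, the vesicular glutamate transporter gene of cortical neurons, was at 0.09, -1.73 and -0.80 in the gliomas, against 2.41 and 2.27 in the normal brains (-3.15 ± 0.54, adjusted p = 0.00681). Those that rose were Dll1, a Notch ligand gene activated by proneural factors (3.43 ± 0.22), and Dcx, a microtubule protein of migrating young neurons (1.93 ± 0.31). 

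**Figure D4:**
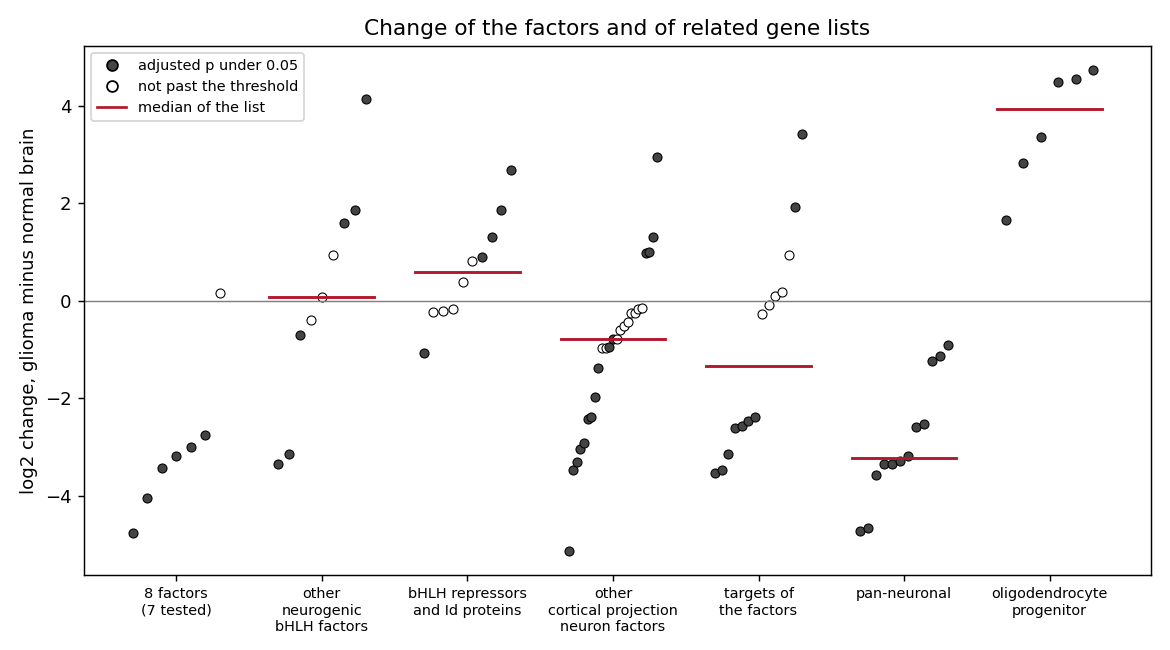
Log2 change in glioma minus normal brain of the 7 factors tested, of related gene lists and of marker lists, each point a gene, filled at an adjusted p under 0.05, with list medians in red (none is drawn for the factors). Neurod2, Neurod6, Tbr1, Fezf2 and Bcl11b lie within the range of the pan-neuronal genes and Eomes above it, while the bHLH and target lists spread to both sides of 0 and the oligodendrocyte progenitor genes lie above 0. The point of Neurod1 is its fitted value of -4.76, below background in glioma.

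Markers of other cells that use these factors were examined beside them. Striatal projection neurons express Bcl11b, and all 8 of their markers fell, with a median of -2.60, including Drd1 (-2.95 ± 0.27) and Adora2a (-2.76 ± 0.22). Their summed level was 4.92 to 5.10 in the gliomas, against 7.40 and 7.54 in the normal brains. The part of striatal cells in the fall of Bcl11b was not tested. Cerebellar granule neurons express Neurod1. Of 8 listed markers of granule and unipolar brush neurons, Gabra6 and Cbln3 were detected on no array. Zic1, Barhl1 and Fat2 were detected on all 5 arrays and did not pass. Zic1 had the largest change of these, uneven between gliomas (-3.44 ± 1.14, adjusted p = 0.0546, limma). Of the 6 markers of cerebellar granule and unipolar brush neurons that were tested, Calb2 (-5.56 ± 0.41, detected on 2 of the 3 glioma arrays) and Cbln1 (-2.55 ± 0.30) fell and Etv1 rose, with a median change of -1.38. Their median level was -0.97, -1.17 and -1.57 in the gliomas, against 0.66 and 0.14 in the normal brains. Their summed level was 4.93 to 5.66 in the gliomas, against 5.04 and 5 in the normal brains, and in the gliomas most of it was Etv1 (4.83, 4.78 and 5.62). Of 4 dentate gyrus genes tested, 3 fell: Dsp, which was detected and so entered the test through normal brain only, was at least 18.9-fold lower, Lct fell by 2.25 and Prox1 by 1.22. The call of Lct was lost without normal brain replicate 2 (adjusted p = 0.0524), and that of Prox1 without replicate 1 (0.0663) or 2 (0.0913) and in the unscaled values (0.0813). Their summed level was -1.20 to -0.02 in the gliomas, against 0.57 and 0.99 in the normal brains. The part of these cell types in the fall of Neurod1 was not tested.

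Eomes and Bcl11b also serve T and NK cells. Of 10 lymphocyte markers 3 were not tested, Cd3g and Ncr1 being detected on no array and Cd8a on 1 glioma array. Of the 7 tested, Cd4 fell by 1.12 (SE 0.16) and the others did not pass, with a summed level of 1.55 to 1.99 in the gliomas, against 2.18 and 2.26 in the normal brains. Eomes is also a marker of mitral and tufted cells of the olfactory bulb. Of 5 such genes, Cdhr1 and Doc2g fell by 3.03 and 1.44, Shisa3 and Tbx21 were higher, and Lhx1 did not pass, with a summed level of -1.17 to -0.55 in the gliomas and -0.40 and 0.05 in the normal brains. The call of Doc2g was lost without normal brain replicate 1 (adjusted p = 0.0719). Shisa3 was detected on all glioma arrays and no normal brain array, which favours finding a difference. By the approximate bound it was at least 9.88-fold higher.

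The genes whose profiles lay closest to each factor were found by the root mean square difference of log2 levels over the 5 arrays, after centring each gene on its normal brain mean, among 14858 other genes detected on all arrays. Neurod2 was matched most closely by Chgb, a granin of secretory vesicles, at 0.041 log2 units, followed by the potassium channel gene Kcnh1 (0.083) and the GABA receptor subunit gene Gabrb2 (0.088). Fezf2 was followed by Vstm2l (0.063), Lrrc3b (0.068) and Tmem151a (0.073), and Bcl11b by Fam131a (0.061), Pde2a (0.063) and the vesicle fusion gene Nsf (0.071). Tbr1 had less close partners, Wfdc18 (0.105), Slc35f4 (0.168) and the potassium channel gene Kcnj4 (0.169). Neurod6 had the least close ones, Ecrg4 (0.238), Cox8b (0.504) and Gm34583 (0.537). Ecrg4 followed its uneven fall, with changes of -2.50, -4.51 and -5.15 in gliomas 1 to 3, against -2.38, -4.92 and -4.84 for Neurod6. The likeness was taken over 5 arrays that form 2 groups.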

How the data were processed

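Per the submitters' processing notes, the authors produced spot intensity values with Agilent Feature Extraction 10.7.3.1, which subtracts background. The deposited value table holds log2 values, checked to equal the log2 processed signal without scaling between arrays. All arrays lay on 1 slide with 1 scan, per the file headers.

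Control spots and 23 probes with outlier flags were left out, and spots of a probe were averaged. Processed signals were divided by the 75th percentile of their array (866 to 1055 in gliomas, 723 and 743 in normal brains) and taken as log2. Probes were named through RefSeq accessions, 28019 in all. Each gene took its brightest probe and was tested where 2 or more arrays detected this probe well above background, with limma 3.58.1 in R 4.3.3 (lmFit, eBayes, two-sided, Benjamini-Hochberg). The fit was tested on simulated data. The files hold no mean spot signal, so normexp (offset 50) used the median spot signal.

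The factors and lists were chosen with earlier results of these data known. Genes were named by rule: every factor with its paralogs, up to 3 called genes per direction of each list without overlap of groups, and the 3 nearest profiles per factor. Lhx2 and Emx2 were added after their values were seen, and some genes that the rule selects are not reported here. Markers of oligodendrocytes, astrocytes and microglia were also fitted: 4, 2 and 0 of 5 each were lower and 0, 0 and 2 higher (unadjusted p under 0.05: the same counts). Alternatives were another scaling, another neuronal yardstick, background correction, filter, probe rule and variance prior, each array left out, and the replicate number as a block. Python 3.11.15 and matplotlib 3.10.9 drew the figures.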

Additional observations from a re-analysis of the deposited data

How the results depend on the processing

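The 6 factors called lower stayed lower under all alternatives that could test them (Neurod1 could not be tested with detection required on all 5 arrays, which left 5 calls), except that Neurod6 lost its call without normal brain replicate 1 or 2. The log2 changes with 1 array left out ranged from -4.98 to -4.57 for Neurod1, -3.41 to -2.93 for Neurod2, -4.88 to -3.61 for Neurod6, -3.28 to -2.65 for Tbr1, -3.71 to -3.17 for Fezf2, -2.88 to -2.68 for Bcl11b and -0.67 to 0.98 for Eomes, which also reversed with normexp (-0.26). Tbx21 reversed with normexp (-0.05). Relative to the pan-neuronal median level, Neurod1 (0.68) and Bcl11b (0.08) reversed with normexp. With the median change of the pan-neuronal genes in its place, an alternative chosen after seeing the data, Neurod2 (0.05), Tbr1 (0.22) and Bcl11b (0.48) reversed and Fezf2 (-0.19) lost its call. Neurod2 was no longer called with quantile normalization (-0.60), normexp (-0.43), the mean of detected probes (-0.45) or the replicate block (-0.60), and Fezf2 with normexp (-0.01), no filter (-0.86), the mean of detected probes (-0.69) or the replicate block (-0.58). With 1 array left out these relative changes ranged from -0.77 to -0.48 for Neurod2, -1.07 to -0.58 for Fezf2 and -2.24 to -1.06 for Neurod6. The cause was not tested. The normexp offset by construction shrinks the changes of dim probes. That setting also used the median spot signal and another background correction, so the part of the offset was not isolated.

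The number of genes called ranged from 4630 to 9325 with 1 array left out, 1973 to 4333 higher and 2626 to 4992 lower, lowest without either normal brain array. In the lists, 5 neurogenic bHLH genes fell without a filter (3 with it), and no bHLH repressor or Id gene was lower in the authors' unscaled table. With 1 array left out, 1 to 5 repressor and Id genes were higher and 0 to 1 lower, and 2 to 4 cortical factors were higher and 9 to 17 lower. The replicate numbers did not pair the samples (correlation of deviations from the group means 0.01 and 0.05 for the same numbers), and with the replicate block 6 factors and 8263 genes were called, against 6 and 8687. With a normal brain array left out, the remaining one was assumed to vary like the gliomas. Slide row and group were the same split and cannot be told apart.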
